A study of Sus scrofa with 57 samples.

Results

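The nuclear genes of oxidative phosphorylation were followed in the adipocytes of lean and obese pigs, complex by complex. Members were chosen by gene symbol alone, as the names that begin with NDUFA, NDUFB, NDUFC, NDUFS, NDUFV, UQCR, COX4 to COX8 or ATP5, together with SDHA to SDHD and CYC1. This rule took 86 loci of the 25285 gene identifiers in the expression tables. They carry 78 symbols, of which 8 stand at 2 loci each, and no locus named CYC1 was among them. Complex I had 35 loci, complex II 4, complex III 5, complex IV 18 and complex V 17, with 4 assembly factors of complex I and 3 factors related to complex V beside them. NDUFA4 was placed with complex IV, of which it is a subunit.

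RNAseq covered 5 lean and 5 obese male pigs from an F2 intercross of Duroc and Göttingen minipigs, bred as a resource population for obesity. Mature adipocytes were freed from retroperitoneal fat with collagenase, and total RNA without ribosomal RNA was sequenced from each animal. The replicates are separate animals. Pig-572 has 2 libraries by their titles, averaged here, though the description of the second gives a different animal number. The lean pigs are pig-402, pig-407, pig-413, pig-525 and pig-577, and the obese pigs are pig-433, pig-473, pig-524, pig-529 and pig-572. Values below follow this order.

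In the inner mitochondrial membrane, complexes I and II pass electrons from NADH and succinate to ubiquinone, complex III passes them on to cytochrome c, and complex IV hands them to oxygen. Complexes I, III and IV pump protons as they work, and complex V lets the protons flow back to make ATP. Most subunits come from nuclear genes, and the remaining subunits come from the mitochondrial genome. White adipocytes have fewer mitochondria than muscle or brown fat, and they use the ATP and the mitochondrial carbon flow for lipid synthesis, lipid breakdown and the secretion of hormones.

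The label of the cells was checked against markers. Of 12 adipocyte markers, 7 were matched by name, and all 7 were expressed. CIDEC, a protein of the lipid droplet, stood at 484 ± 75.6 FPKM in lean pigs and 407.2 ± 89.0 in obese pigs (SD, n = 5). PLIN1, which coats the droplet, stood at 289 ± 42.3 and 339.8 ± 68.8 (SD, n = 5). LEP, the hormone that reports fat stores, stood at 47.9, 19.1, 7.31, 54.4 and 15.8 FPKM in the lean pigs and at 76.3, 135, 152, 108 and 118 in the obese pigs. All 5 obese pigs lay above all 5 lean pigs for LEP, by 2.29 ± 0.47 (SE) on the log2(FPKM + 1) scale, with an exact permutation p of 0.00794 and a limma adjusted p of 0.0898. The adjusted p of LEP was 0.0411 when pig-402 was left out and 0.0343 when each library of pig-572 counted as a replicate. The summed level of the 7 adipocyte markers was 1235, 1164, 1201, 1238 and 1396 in the lean pigs and 1583, 1346, 1247, 1311 and 1157 in the obese pigs, so the groups overlapped. PLIN4, a further droplet protein, and PPARG, the main transcription factor of fat cells, differed by 0.31 and -0.06.

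Markers of other cells were low for macrophages, endothelium and muscle and higher for connective tissue and blood. Of 13 macrophage and leukocyte loci, 3 reached a mean of 1 FPKM, C1QC was the most abundant at 5.50 FPKM, CD14 differed by -0.14 (-0.03 without pig-577 and -0.23 without pig-402), and CD163 was listed at 0 in every pig. Their sum was 15.3, 20.1, 7.94, 19.5 and 15.7 in the lean pigs and 22.3, 14.9, 11.01, 12.4 and 11.2 in the obese pigs. Of 7 endothelial loci, PECAM1 alone reached 1 FPKM, at 5.08, and the sum was 8.07, 13.6, 1.4996, 10.3 and 2.99 in the lean pigs and 7.98, 9.82, 3.48, 5.92 and 5.52 in the obese pigs. For both lists pig-413 had the lowest sum and the groups overlapped. Of 13 fibroblast and preadipocyte loci, 7 were tested, and COL3A1, a fibrillar collagen that adipocytes can also express, was the most abundant at 396 FPKM. DCN, a matrix proteoglycan, had a mean of 50.8 FPKM and LUM, a related one, of 8.83. The sum was 643, 728, 229.6, 465 and 691 in the lean pigs and 505, 518, 624, 404 and 257 in the obese pigs, and DLK1, which marks preadipocytes, was listed at 0 throughout. COL3A1 makes up most of this sum, which was lowest in pig-413 among the lean pigs and in pig-572 among the obese pigs. The median of the list by pig was 0.34, 0.61, -1.84, 0.29 and 0.79 in the lean pigs and 0.73, -0.61, -1.27, -0.57 and -0.98 in the obese pigs, with pig-524 the lowest of the obese pigs and pig-433 the highest. All 7 tested loci had a difference below 0, with a median of -0.53, which was -1.04 without pig-413 and -0.19 without pig-407. With limma, 0 of them had an adjusted p under 0.05 and 0 an unadjusted p under 0.05, which 20.8% of all genes tested had. Without pig-413, 3 were lower at an unadjusted p under 0.05, against 6.80% of all genes in that fit. The collagen gene COL1A2 differed by -0.71 and -0.63 at its loci, and by -1.27 and -1.09 without pig-413. HBB, the beta chain of haemoglobin, had a mean of 31.3 FPKM and ran from 13.2 in pig-413 to 81.2 in pig-577, and it was the only erythrocyte locus of 5 that was tested. The 7 skeletal muscle loci together stayed at or below 1.13 FPKM in each pig. The 3 brown adipocyte loci that were matched, ELOVL3, PRDM16 and PPARGC1A, stayed at or below 0.0222 FPKM together. The part of other cells in the values below was not tested, and in bulk RNA fewer cells of a type cannot be told apart from less RNA per cell.

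Nuclear transcripts of the complexes were abundant in both groups, and no member differed past the adjusted threshold. Of the 86 loci, 81 had a mean of at least 1 FPKM and were tested, and 43 of these had a mean of at least 100 FPKM. The range went from 2.43 FPKM for COX6A2 to 897 FPKM for NDUFA4. Together the 86 loci summed to 15314, 13381, 13179, 14921 and 15924 FPKM in the lean pigs and to 11146, 15561, 10580.4, 14518 and 14780.5 FPKM in the obese pigs. The group means of these sums were 14544 ± 1210.0 and 13317 ± 2282 (SD, n = 5). Obese pig-433 and pig-524 had the lowest sums of all pigs, while the other obese pigs lay within the lean range.

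**Figure D1:**
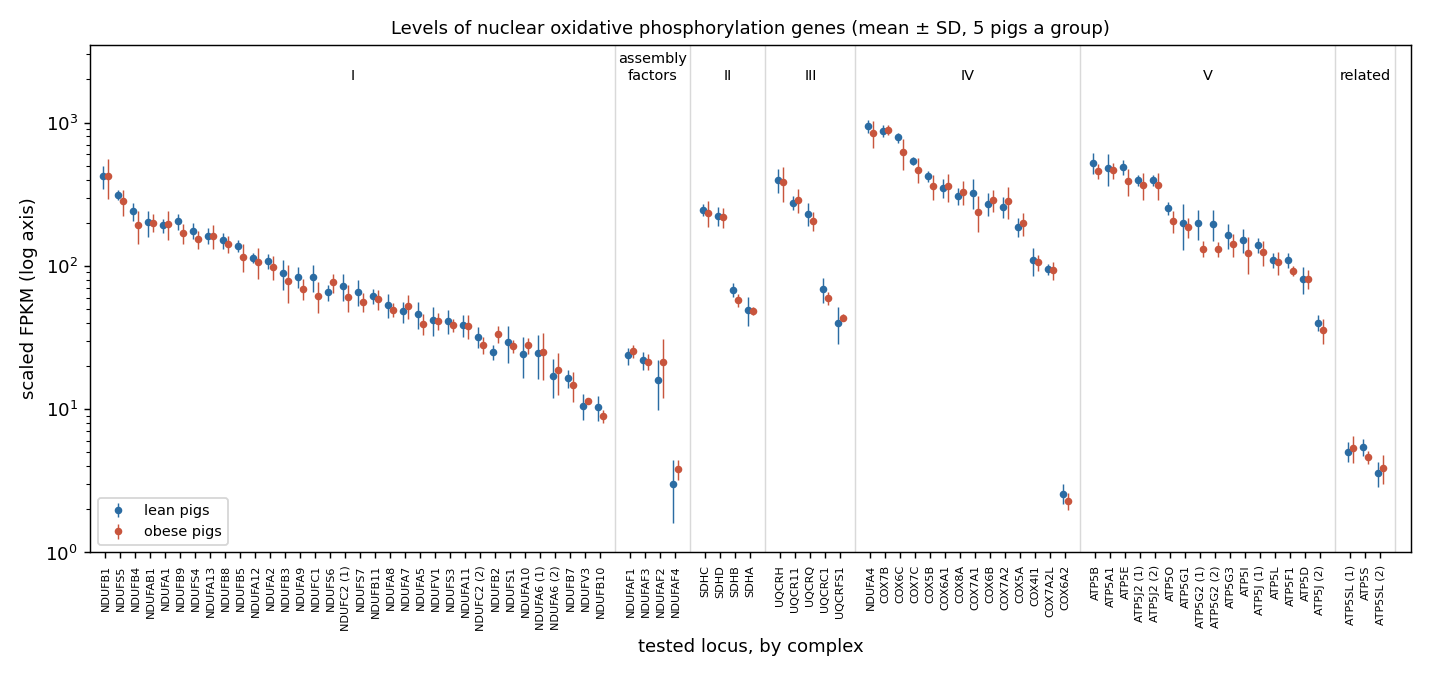
Mean FPKM with SD over 5 lean pigs (blue) and 5 obese pigs (red), on a log axis, for 80 tested loci sorted by level within each complex. The means of the groups lie close together at nearly all loci, from 2.43 FPKM for COX6A2 to 897 FPKM for NDUFA4.

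With limma, 0 of 81 members had an adjusted p under 0.05. Among all 10190 genes tested 1 was called (0.00981%), C10ORF46, which is no member and is named here after its values were seen. C10ORF46 was higher in obese pigs by 1.01 ± 0.09 (SE, limma adjusted p = 0.00413), without overlap. At an unadjusted p under 0.05, 3 members (3.70%) were lower in obese pigs, against 10.3% of all genes tested, and 1 member (1.23%) was higher, against 10.5%. In both directions these are 4 of 81 members, against 20.8% of all genes. The groups did not overlap at 2 members, the near-identical loci of ATP5G2, which are also among the 3 lower members. Both were lower in obese pigs, against 1.82% of all genes in that direction, 2.35% in the other one, where 0 members stood, and 4.16% in both. Of the 81 log2 differences, 58 were below 0 and 23 above, and 79 lay within 0.5 of 0. Their median was -0.08, against -0.0023 for all genes tested. Without size factors, 60 members lay below 0 and the median was -0.10. Counts moved with single pigs, and with 4 pigs in a group fewer values can overlap. Without pig-402, 165 genes were called, 2 members were higher at an unadjusted p under 0.05, against 12.9% of all genes in that fit, and 4 members did not overlap, against 10.4% of all genes. Without pig-407, 2 genes were called, 6 members were lower at that level, against 10.8% of all genes, and 5 did not overlap, against 6.50%. Without pig-473, 7 members were lower, against 10.3% of all genes, and 5 did not overlap, against 7.08%. Without pig-525, 2 members were higher, against 10.21% of all genes, without pig-433, 3 did not overlap, against 7.66%, and without pig-529 or pig-577, 2 genes were called. In none of these fits was a member called.

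**Figure D2:**
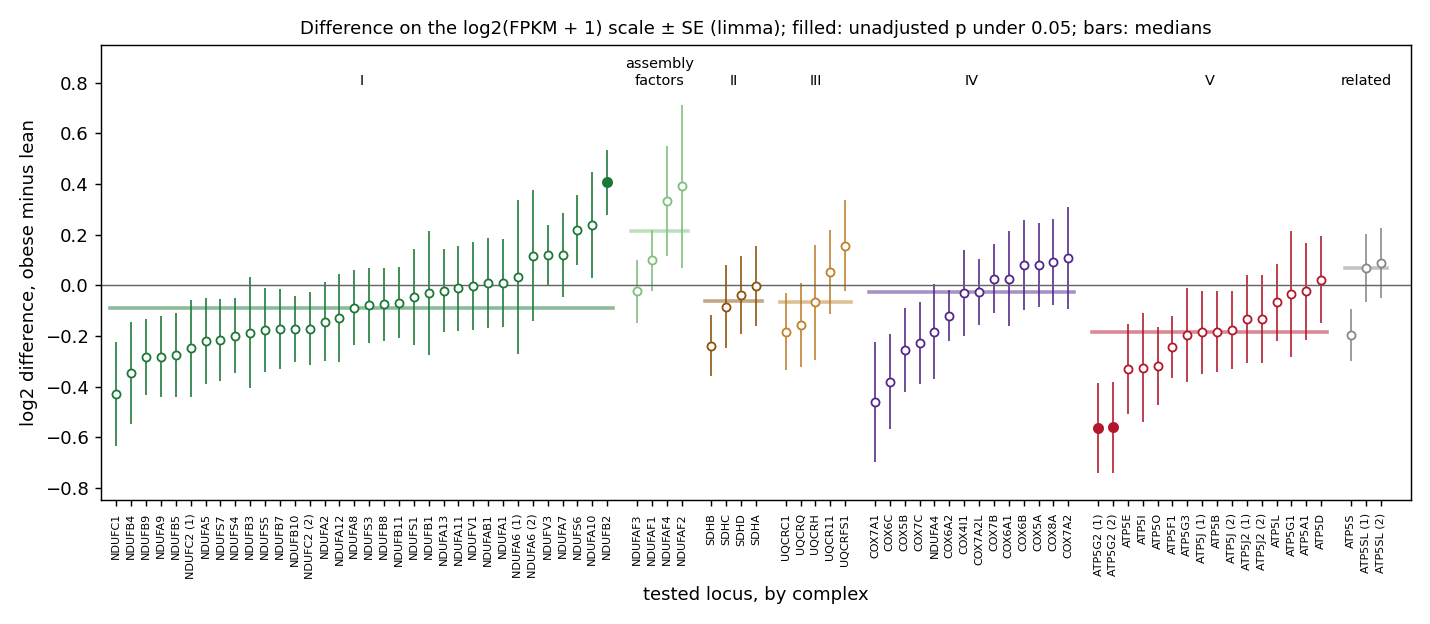
Difference between obese and lean pigs on the log2(FPKM + 1) scale with its standard error from limma, for 80 tested loci sorted within each complex. Filled points have an unadjusted p under 0.05 and horizontal bars are the medians over all tested loci, which run from -0.19 in complex V to 0.22 in the assembly factors of complex I.

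Complex I takes electrons from NADH. Its 35 loci were all tested, 26 had a difference below 0, and the median was -0.09, from -0.15 without pig-413 to -0.04 without pig-524. The core subunits NDUFS1, NDUFS3 and NDUFV1, all of the arm that stands in the matrix, differed by -0.05, -0.08 and -0.0032, and NDUFS7, which passes electrons to ubiquinone, by -0.22. NDUFS7 stood at 64.8, 58.6, 52.8, 66.3 and 87.9 FPKM in the lean pigs and at 57.4, 65.1, 42.6, 56.6 and 60.2 in the obese pigs. Pig-524 alone lay below the lean range, lean pig-577 was the highest, and the groups overlapped (exact permutation p = 0.230).

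NDUFB2 (ENSSSCG00000016495, chromosome 18, 9642905 to 9654821 of Sscrofa10.2), an accessory subunit of the membrane arm, was the member higher in obese pigs at an unadjusted p under 0.05. It stood at 27.9, 24.8, 20.01, 26.1 and 26.02 FPKM in the lean pigs and at 26.8, 34.8, 31.8, 34.6 and 39.2 in the obese pigs. Obese pig-473, pig-524, pig-529 and pig-572 lay above every lean pig, and pig-433 lay below lean pig-402. The difference was 0.41 ± 0.13 (SE), with an exact permutation p of 0.0159 and a limma adjusted p of 0.1501. NDUFS6, an accessory subunit that binds zinc, stood at 63.7, 59.1, 56.6, 72.4 and 76.3 in the lean pigs and at 64.5, 80.1, 66.1, 79.8 and 92.8 in the obese pigs. Obese pig-473, pig-529 and pig-572 were above the lean range and the other obese pigs were inside it (difference 0.22, exact permutation p = 0.135).

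NDUFC1, an accessory subunit of the membrane arm, stood at 90.7, 54.3, 82.4, 103 and 86.3 FPKM in the lean pigs and at 57.7, 84.8, 43.8, 57.9 and 64.3 in the obese pigs. Pig-524 alone lay below the lean range, and lean pig-407 lay below the other obese pigs (difference -0.43, exact permutation p = 0.103). The most abundant subunits of the complex, all accessory ones, were NDUFB1, NDUFS5 and NDUFB4, with means of 424, 298 and 216 FPKM. NDUFB4 stood at 226, 197, 294, 236 and 248 in the lean pigs and at 147, 245, 131, 220.2 and 219.5 in the obese pigs. For NDUFB4, NDUFS5 and NDUFB1 pig-433 and pig-524 lay below the lean range, and the other obese pigs lay within or above it. The sign of the difference of NDUFB1, -0.03, changed with the pigs used (-0.14 to 0.15 with single pigs left out).

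The assembly factors of complex I put the subunits together and are not part of the finished enzyme. The 4 taken by the symbol rule had means from 3.41 FPKM for NDUFAF4 to 24.5 for NDUFAF1. Their median difference was 0.22, and 0.12 without pig-413. Outside the rule, NDUFAF5 and NDUFAF7 differed by -0.07 and -0.17. NDUFAF6, also outside it, had a mean of 0.911 FPKM and was not tested. NDUFAF2, a chaperone of late assembly, stood at 11.999, 21.8, 22.0, 8.26 and 15.8 FPKM in the lean pigs and at 11.3, 19.4, 18.7, 20.7 and 37.0 in the obese pigs. The highest value was that of obese pig-572, and the groups overlapped widely (difference 0.39, 0.18 without pig-572, exact permutation p = 0.317). NDUFAF4 and NDUFAF3, which act together early in assembly, had group means of 2.99 and 21.9 FPKM in lean pigs and of 3.82 and 21.5 in obese pigs.

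Complex II, succinate dehydrogenase, is shared with the TCA cycle and is wholly encoded by nuclear genes. All 4 of its genes had a difference below 0, and their median of -0.06 ran from -0.13 to 0.01 with single pigs left out. SDHA, the flavoprotein that oxidises succinate, stood at 59.8, 57.2, 38.1, 36.3 and 55.9 FPKM in the lean pigs and at 51.3, 45.9, 44.2, 49.4 and 51.1 in the obese pigs. All obese pigs lay inside the lean range, and the difference of -0.003 had no stable sign (-0.10 to 0.07 with single pigs left out). SDHB, the iron-sulfur subunit, stood at 77.2, 61.1, 62.9, 65.3 and 74.4 in the lean pigs and at 52.8, 61.8, 49.0, 62.5 and 62.3 in the obese pigs. Pig-433 and pig-524 lay below the lean range, and the other obese pigs lay at its lower end (difference -0.24 ± 0.12, SE, exact permutation p = 0.0556, limma adjusted p = 0.276). SDHC and SDHD, which anchor the enzyme in the membrane, were several times as abundant, with means of 241 and 221 FPKM. Their differences were -0.08 and -0.04, and for both genes pig-433 and pig-524 were below every lean pig.

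Complex III carries electrons from ubiquinol to cytochrome c. Its 5 loci had a median difference of -0.07, which ran from -0.16 to 0.06 with single pigs left out, the highest without pig-524. UQCRH, the hinge subunit that meets cytochrome c1, was the most abundant and stood at 268, 411.2, 401.8, 433.01 and 467 FPKM in the lean pigs and at 299, 492, 259, 392 and 473.2 in the obese pigs. Lean pig-402 lay between obese pig-524 and pig-433, obese pig-473 and pig-572 lay above the lean range, and the groups overlapped. UQCR11 and UQCRQ, small accessory subunits, had means of 282 and 219 FPKM. The catalytic iron-sulfur protein UQCRFS1 stood at 57.2, 36.8, 25.97, 44.6 and 36.7 in the lean pigs and at 40.2, 43.9, 42.2, 45.6 and 46.0 in the obese pigs. The lean pigs spread widely around the narrow obese range (difference 0.16, 0.01 without pig-413 and 0.29 without pig-402, exact permutation p = 0.5). UQCRC1, a core subunit, had a difference of -0.18 (exact permutation p = 0.238).

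Complex IV, cytochrome c oxidase, reduces oxygen and held the most abundant members. Of 18 loci, 14 were tested, and their median difference was -0.03, from -0.08 to 0.01 with single pigs left out. NDUFA4 stood at 1041, 965, 777, 1012 and 938 FPKM in the lean pigs and at 671, 1011, 617, 972 and 964 in the obese pigs. Pig-433 and pig-524 were below every lean pig, and the other obese pigs lay within the lean range (difference -0.18, -0.08 without pig-524, exact permutation p = 0.286). COX7B, a small structural subunit encoded on the X chromosome, was nearly level between the groups at 877 ± 84.0 and 891 ± 67.4 (SD, n = 5). COX6C, another small subunit, stood at 727, 773, 837, 735 and 868 in the lean pigs and at 459, 779.9, 460.1, 709 and 686 in the obese pigs. All obese pigs apart from pig-473 lay below the lean range, and pig-433 and pig-524 lay far below it. The difference of COX6C was -0.38 ± 0.19 (SE), with an exact permutation p of 0.0397 and a limma adjusted p of 0.269.

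Several subunits of complex IV come in tissue forms. COX7A1, the form of heart and muscle, which brown fat also uses, stood at 292, 318, 301, 257 and 455 FPKM in the lean pigs and at 245, 319, 139, 278 and 216 in the obese pigs. COX7A2, the form of most tissues, stood at 277, 217, 220.3, 317 and 263 in the lean pigs and at 192, 346, 237, 280.2 and 362 in the obese pigs. COX7A1 was below the lean range in obese pig-433, pig-524 and pig-572, whereas COX7A2 was highest in obese pig-572 and pig-473, and both genes overlapped between the groups. The differences were -0.46 for COX7A1, -0.28 without pig-524, and 0.11 for COX7A2, 0.0090 without pig-572. COX7A1 made up 51.3, 59.4, 57.8, 44.7 and 63.3% of the sum of the pair in the lean pigs and 56.0, 48.0, 37.0, 49.8 and 37.4% in the obese pigs. The mean shares were 55.3% ± 7.33 and 45.6% ± 8.28 (SD, n = 5), with overlap and an exact permutation p of 0.0873.

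COX7A2L, a relative that joins complexes III and IV, had a mean of 93.9 FPKM and a difference of -0.03. COX6A1, the general form of COX6A, stood at 349 ± 52.3 and 359 ± 78.3 FPKM (SD, n = 5), while COX6A2, its heart and muscle form, made up less than 1% of the pair in each pig. COX4I1, the general form of COX4, stood at 109 ± 24.4 and 106 ± 14.3, COX6B at 272 ± 50.8 and 287 ± 49.5, and COX8A at 307 ± 42.0 and 329 ± 61.7 (SD, n = 5). The groups overlapped for each of these genes. COX8C was listed at 0 in 9 pigs and at 0.0884 in pig-413, and COX8H was listed at 0 in all 10. NDUFA4L2, the paralogue of NDUFA4, stayed at or below 0.119 FPKM at both of its loci.

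Complex V, the ATP synthase, had the lowest median difference of the complexes, -0.19, with 15 of its 16 tested loci below 0. The median ran from -0.24 to -0.10 with single pigs left out. Its rotor ring is built of a c subunit whose mature form is the same from ATP5G1, ATP5G2 and ATP5G3. ATP5G2 stands at 2 loci on chromosome 5 (ENSSSCG00000026548, 19267782 to 19272713, and ENSSSCG00000029673, 19410800 to 19415732). Their values were nearly identical, so how reads were shared between these copies is uncertain and they are not independent of each other. The loci of ATP5J2 are alike in the same way. The counts and medians hold each of these loci, and over the 68 tested members whose symbol has 1 locus the median difference was -0.07, with 49 below 0. The first locus of ATP5G2 stood at 152, 156, 249, 183 and 245 FPKM in the lean pigs and at 124, 145, 109, 150.2 and 127 in the obese pigs. Every obese pig lay below every lean pig, with a narrow gap between obese pig-529 and lean pig-402. The difference was -0.56 ± 0.18 (SE), with an exact permutation p of 0.00794, the smallest that 252 splits of the pigs can give, and a limma adjusted p of 0.156. Without size factors the groups overlapped at both loci.

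The other genes of the c subunit did not separate the groups. ATP5G1 stood at 278, 131, 123, 251 and 212 FPKM in the lean pigs and at 173, 228, 153, 170.0 and 205 in the obese pigs. ATP5G3 stood at 199, 116, 145, 186 and 171 in the lean pigs and at 109.9, 169.8, 121, 147 and 162 in the obese pigs. All obese values of ATP5G1 lay inside the wide lean range, and for ATP5G3 pig-433 alone lay below it. ATP5G2, both loci added, which counts reads double if each copy holds the same ones, made up 39.1, 55.9, 65.0, 45.7 and 56.3% of the sum of the genes of the c subunit in the lean pigs and 46.8, 42.3, 44.3, 48.7 and 41.0% in the obese pigs. These shares overlapped (exact permutation p = 0.151).

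**Figure D3:**
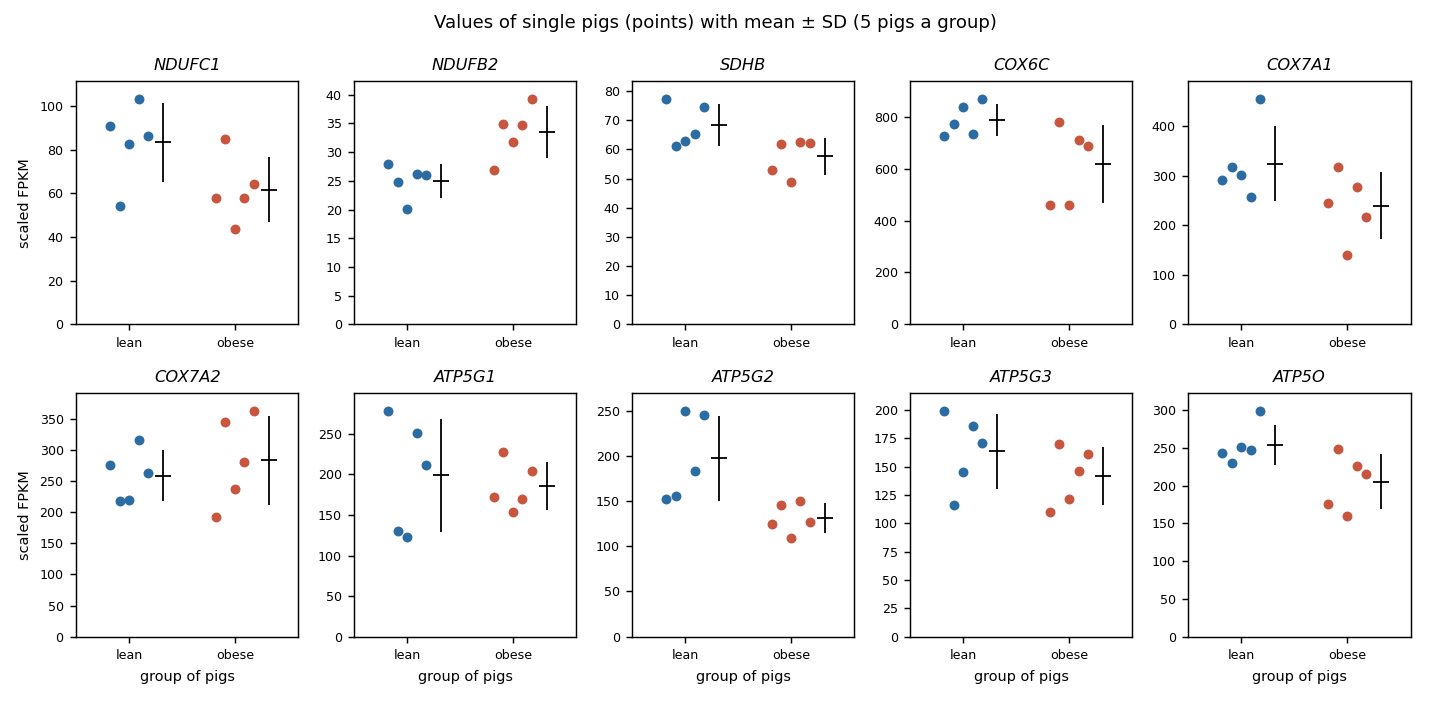
Scaled FPKM of 10 genes in single lean pigs (blue) and obese pigs (red), with the mean and SD of each group (n = 5) beside the points. The groups separate at ATP5G2, where the obese pigs lie between 109 and 150 FPKM and the lean pigs between 152 and 249, and overlap at the other genes.

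The catalytic head of the synthase was abundant. ATP5B, the catalytic beta subunit, stood at 523 ± 86.5 FPKM in lean pigs and 458 ± 54.4 in obese pigs, and ATP5A1, the alpha subunit, at 481 ± 119 and 464 ± 59.0 (SD, n = 5). ATP5A1 overlapped fully between the groups, and its difference of -0.02 ran from -0.13 to 0.09 with single pigs left out. ATP5E, the epsilon subunit of the central stalk, stood at 418, 461, 528, 466 and 567 in the lean pigs and at 338, 468, 283, 482 and 395 in the obese pigs. ATP5O, which ties the head to the side stalk, stood at 243, 229.8, 252, 247 and 298 in the lean pigs and at 176, 249, 160.4, 226 and 215 in the obese pigs. Pig-433, pig-524 and pig-572 lay below the lean range for ATP5E, and these and pig-529 did so for ATP5O. The differences were -0.33 (exact permutation p = 0.0873) and -0.32 (exact permutation p = 0.0397), and the limma adjusted p was 0.306 and 0.261. ATP5D, the delta subunit of the stalk, was the only locus of the complex above 0, at 0.02, and ran from -0.07 to 0.12 with single pigs left out. The second locus of ATP5I was listed at 0 in all pigs. The related factors ATP5S and ATP5SL had means of 5.05 FPKM and, at its loci, 5.22 and 3.74 FPKM, with a median difference of 0.07 over 3 loci, which was -0.03 without pig-433 and 0.12 without pig-473. ATP5S was at -0.20, opposite in sign to the loci of ATP5SL.

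Pigs of a group differed from each other over the whole set. Among the 81 tested members, pig-524 had the lowest value of the 10 pigs at 33, pig-433 at 20 and lean pig-413 at 18. Pig-433 and pig-524 were the 2 lowest pigs at 32 members. Measured as the median difference from the mean of the lean pigs, the members stood at 0.11, -0.15, -0.19, 0.07 and 0.15 in the lean pigs and at -0.35, 0.10, -0.36, 0.01 and 0.05 in the obese pigs. Obese pig-433 and pig-524 were the lowest on this measure, lean pig-413 and pig-407 came next, and the remaining obese pigs lay at or above 0. In complex V the same measure was 0.07, -0.22, -0.15, 0.06 and 0.18 in the lean pigs and -0.48, 0.10, -0.47, -0.10 and 0.02 in the obese pigs. Pig-433 and pig-524 were again the lowest. Without pig-524 the median difference of the members was -0.04 and 45 of 81 lay below 0, and without pig-413 it was -0.15 and 67 lay below 0.

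**Figure D4:**
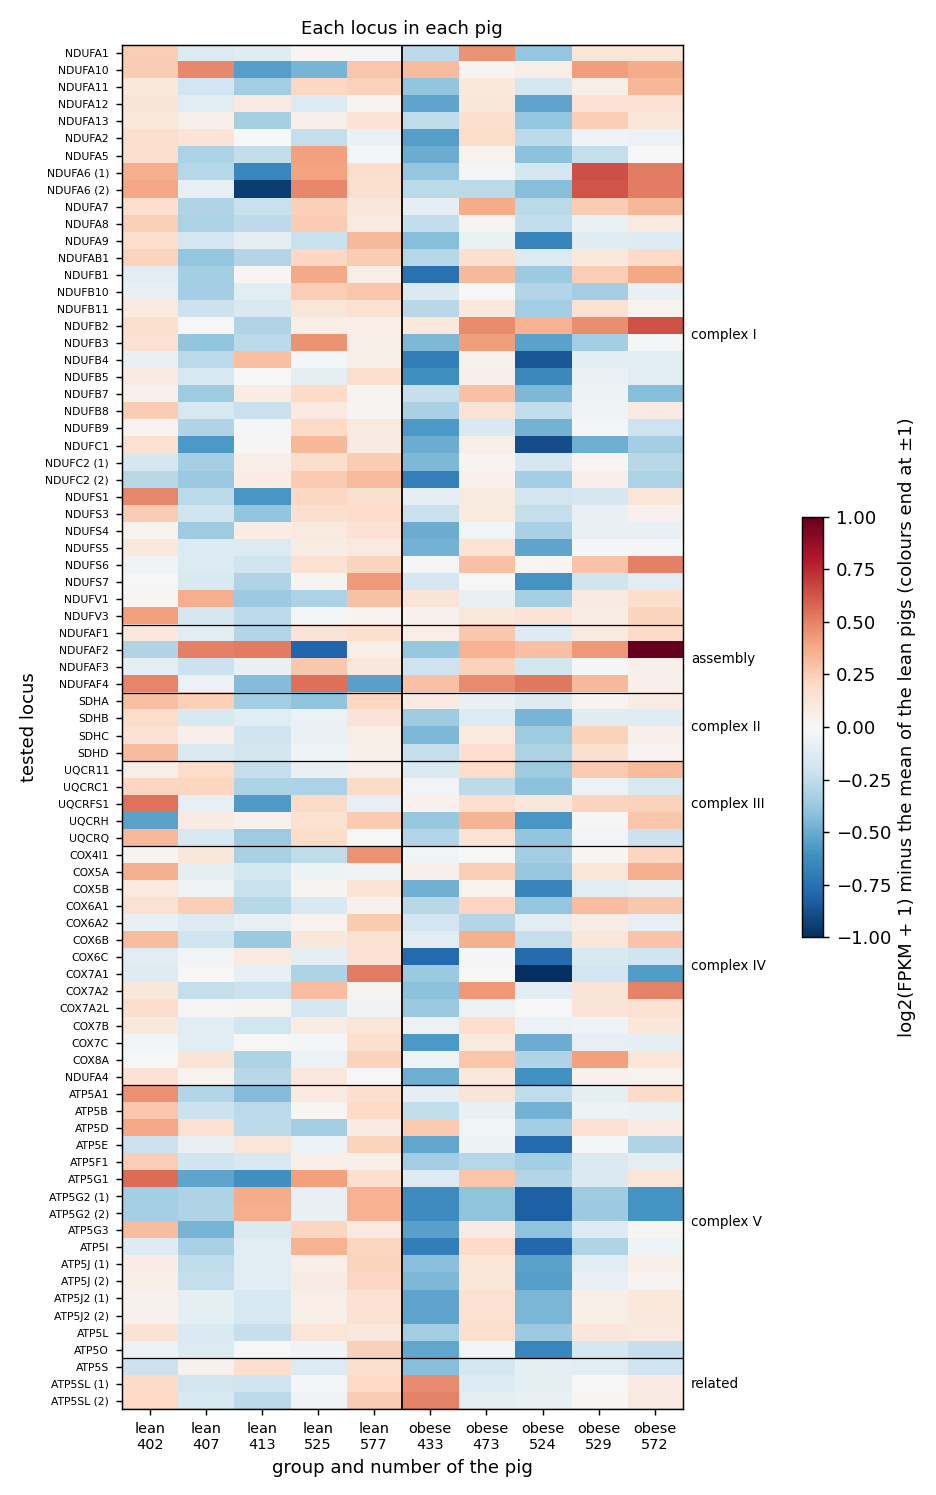
Level of 80 tested loci in each pig on the log2(FPKM + 1) scale, as the difference from the mean of the lean pigs, grouped by complex (blue lower, red higher). Obese pig-433 and pig-524 are blue over most loci, with medians of -0.35 and -0.36 over all tested loci, while obese pig-473, pig-529 and pig-572 are not, with medians of 0.10, 0.0071 and 0.05.

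Complex IV held between 36.5 and 40.1% of the summed FPKM of the members in each pig, complex V between 25.2 and 27.9%, and complex I between 22.0 and 25.1%. The small share of the assembly factors of complex I was 0.406, 0.484, 0.482, 0.436 and 0.424% in the lean pigs and 0.523, 0.500, 0.602, 0.491 and 0.606% in the obese pigs. Every obese pig lay above every lean pig in this share, which was not tested. The factors themselves summed to 58.3 FPKM in pig-433 and 63.7 in pig-524, not above the lean sums of 62.2 to 67.5. These pigs had the lowest sums of all members. The other obese pigs stood at 77.9, 71.3 and 89.6 FPKM. NDUFAF5, NDUFAF6 and NDUFAF7, outside the symbol rule, are not in the share and had lower means in obese than in lean pigs. Between the libraries titled pig-572 the median absolute difference over the members was 0.06 on the log2 scale, against a median of 0.30 between pigs of a group. Depth, read from the steps of low values, was between 75.8 and 100% of the deepest library, that of pig-402. The bounds that cufflinks gave lay between 2.79 and 3.76% from the value at the median member, depending on the library.

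Other genes that serve the complexes came from lists of symbols. In each list 0 genes had a limma adjusted p under 0.05. The counts that follow are at an unadjusted p under 0.05, which 10.3% of all genes passed with a lower and 10.5% with a higher level in obese pigs. With single pigs left out these shares ran from 6.80 to 13.6% and from 7.47 to 12.9%. Without size factors they were 7.64% and 5.98%. Of 25 tested loci of other assembly factors, 1 was lower in obese pigs, UQCC2 of complex III (-0.30, exact permutation p = 0.0476). COA5 of complex IV (0.55, exact permutation p = 0.0397) and the second locus of TTC19 of complex III (0.26, exact permutation p = 0.0238) were higher. This TTC19 locus had a mean of 0.829 FPKM in lean and 1.20 in obese pigs. It passed the filter of 1 FPKM only through the obese pigs, so its p is no support for a difference. Of 19 loci of electron carriers and partners, 1 was lower, SLC25A6, a carrier that exchanges ATP for ADP. Its first locus stood at 46.6, 40.0, 54.8, 44.7 and 50.8 FPKM in the lean pigs and at 32.6, 33.8, 30.9, 34.8 and 43.5 in the obese pigs, and pig-572 alone of the obese pigs reached the lean range (-0.42, exact permutation p = 0.0159). Its second locus, more abundant at 76.4 FPKM, overlapped between the groups (-0.13, exact permutation p = 0.571). COX19, a copper chaperone of complex IV, differed by -0.40, and COQ3, COQ2 and COQ6, enzymes that make ubiquinone, by -0.24, 0.22 and 0.30. COQ6 differed by 0.17 without pig-413 and COQ2 by 0.14 without pig-577. CYCS, which encodes cytochrome c, stood at 185 ± 74.3 and 179 ± 54.6 (SD, n = 5). Without pig-407 the counts of lower genes became 3 in both lists. The count of lower assembly factors became 0 without pig-525, pig-577, pig-433 or pig-524 and without size factors. That of higher ones became 1 without pig-413, pig-577, pig-433, pig-529 or pig-572. Among the carriers 3 were lower without pig-413 or pig-525, and 2 were higher without pig-402.

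Regulators of mitochondrial genes stayed below a mean of 10 FPKM. Of 12 loci 7 were tested, and 0 had an unadjusted p under 0.05 with limma. Without pig-433 there was 1 higher, against 9.83% of all genes in that fit. PPARGC1A, a coactivator known to raise the expression of these complexes in muscle and brown fat, did not exceed 0.00674 FPKM in any pig. NRF1, a transcription factor of many of the member genes, stood at 1.47 ± 0.256 and 1.25 ± 0.232 FPKM, and TFAM, which packages mitochondrial DNA, at 8.28 ± 1.553 and 7.29 ± 1.597 (SD, n = 5). MTERF, a mitochondrial terminator factor, and TFB1M and TFB2M, partners of mitochondrial transcription and ribosomes, differed by -0.16, 0.08 and 0.53, TFB1M by 0.02 without pig-572. For the 13 subunits encoded in the mitochondrial genome, 0 loci were matched by name, so they could not be analysed here.

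Neighbouring mitochondrial pathways had 0 genes with a limma adjusted p under 0.05. A list of 17 genes held the TCA cycle and enzymes that feed it from pyruvate (PDHA1, PDHB, DLAT and PC). In it 1 gene was lower at an unadjusted p under 0.05, against 10.3% of all genes. This was SUCLA2, a subunit of the ligase that makes succinate (-0.49, exact permutation p = 0.0476). The list had a median of 0.0045. This median was -0.11 without pig-413 and 0.07 without pig-407. IDH3B, OGDH and DLAT, subunits of dehydrogenase complexes, differed by -0.21, 0.45 and 0.37, and DLAT by 0.12 without pig-413 and 0.60 without pig-402. Without pig-413 OGDH differed by 0.30. The count of lower genes was 0 without pig-402, pig-433, pig-473 or pig-572 and without size factors. It was 2 without pig-407 or pig-525, against 10.8 and 9.74% of all genes. Without pig-402 there was 1 higher gene, against 12.9% of all genes. Of 15 tested loci of fatty acid beta oxidation, 3 were lower, against 10.3% of all genes, and at all 3 the groups did not overlap, against 1.82%. ACAA2, the thiolase of the last step, stood at 68.5, 90.1, 114, 64.7 and 83.8 FPKM in the lean pigs and at 48.1, 56.4, 46.6, 58.6 and 42.6 in the obese pigs. HADHA stood at 40.8, 55.3, 77.7, 51.3 and 62.3 in the lean pigs and at 36.5, 37.9, 34.4, 39.7 and 27.5 in the obese pigs. With HADHB, it forms the trifunctional protein, which takes long chains through all steps after the first. The differences were -0.71 for ACAA2, -0.67 for HADHA and -0.53 for HADHB, each with an exact permutation p of 0.00794 and with limma adjusted p of 0.107, 0.119 and 0.132. Without pig-413 the count of lower genes was 5, against 6.80% of all genes in that fit. Without pig-402 or pig-525 there was 1 higher gene, against 12.9 and 10.21% of all genes. Without pig-402 HADHA had a limma adjusted p of 0.0457. CPT2, which brings chains into the matrix, and ACADL, a dehydrogenase of the first step, differed by 0.35 and 0.09. CPT2 differed by 0.20 without pig-413, and ACADL by 0.04 without pig-402 and 0.18 without pig-407. The median over the 15 loci was -0.08, and -0.03 without pig-407.

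Ribosomal protein genes served as a comparison. Of 63 tested loci of mitochondrial ribosomal proteins, 4 were lower (6.35%) and 5 higher (7.94%) at an unadjusted p under 0.05, against 10.3% and 10.5% of all genes, with a median of -0.02 (-0.07 to 0.03 with single pigs left out). Without size factors these counts were 1 and 0, against 7.64% and 5.98% of all genes. With single pigs left out 3 to 8 were lower and 1 to 6 higher, against 6.80 to 13.6% and 7.47 to 12.9%. Among those with the lowest p, the difference was -0.35 for MRPL13, -0.36 for MRPL20, 0.29 for MRPS2 and 0.35 for the second locus of MRPL27, and over the list it ran from -0.50 to 0.35. Of 70 tested loci of cytosolic ribosomal proteins, 48 were lower and 0 higher at that level, 0 had a limma adjusted p under 0.05, and the median was -0.49. That count of lower loci was 26 without size factors, 16 without pig-577 and 57 without pig-402. In these fits 7.64, 6.87 and 13.6% of all genes were lower at that level. RPL10L differed by -0.72, with a limma adjusted p of 0.0850 that became 0.0411 without pig-402, and RPS27 by -0.74. The 2 loci above 0 were RPS19BP1 and RPL7L1, in the list by the symbol rule alone, at 0.15 and 0.05. RPS19BP1 stood at 0.07 without pig-413 and at 0.25 without pig-525. By pig, the cytosolic list stood at -0.37, -0.26, 0.30, 0.01 and 0.30 in the lean pigs and at -0.72, -0.26, -0.66, -0.21 and -0.63 in the obese pigs. Pig-433 and pig-524 were low here as in the complexes, but pig-572 was as low and lean pig-402 and pig-407 were also below 0. The difference between these lists and the members was not tested.

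**Figure D5:**
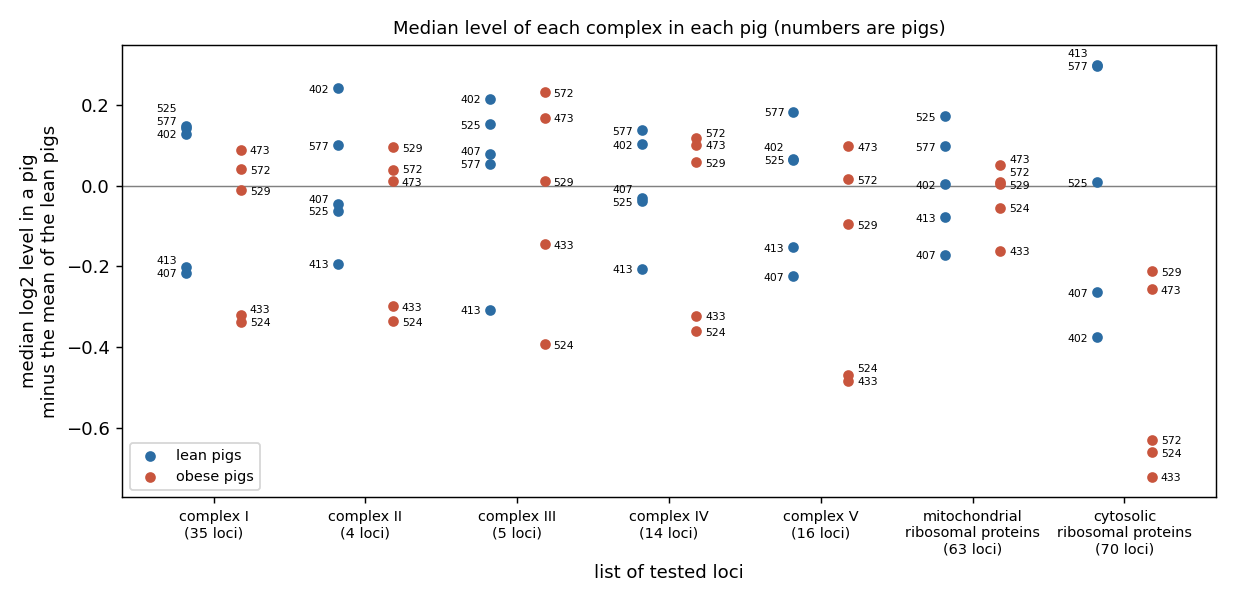
Median over the tested loci of a list of the log2(FPKM + 1) level in a pig, as the difference from the mean of the lean pigs, with the number of each pig. Obese pig-433 and pig-524 are the lowest in complexes I, II, IV and V, at -0.48 and -0.47 in complex V, and the cytosolic ribosomal proteins lie at or below -0.21 in all obese pigs.

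Immediate early and heat shock genes, which respond to the handling of tissue, also differed between pigs. Of 15 tested loci, 6 were lower in obese pigs at an unadjusted p under 0.05, against 10.3% of all genes, 0 had a limma adjusted p under 0.05, and the median was -0.76. FOS stood at 291, 195, 625, 419 and 626 FPKM in the lean pigs and at 287, 274, 94.9, 203 and 62.1 in the obese pigs. Low FOS was found in pig-524 and pig-572, and lean pig-407 lay below obese pig-433, pig-473 and pig-529. IER2, HSPH1 and HSPA8 differed by -1.02, 0.38 and 0.79, HSPA8 by 0.41 without pig-413. The median of the list by pig was -0.41, -0.76, 0.30, 0.35 and 0.53 in the lean pigs and 0.15, -0.06, -1.68, -0.76 and -1.50 in the obese pigs. Pig-524 was low in this list and in the complexes, whereas pig-433 was low in the complexes and not in this list. The count of lower loci was 0 without pig-413, pig-577 or pig-524, where 6.80, 6.87 and 7.57% of all genes were lower. It was 8 without pig-433 or pig-473, where 9.89 and 10.3% of all genes were lower. With all pigs 0 loci were higher at that level. Without pig-525, 2 loci were lower and 2 higher, against 9.74 and 10.21% of all genes. The part of tissue handling in the levels of the complexes was not tested.

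DNA methylation at the member loci was read from the regions in the authors' tables. These come from searches for differences between groups of animals that include females, so the direction is given as a description. Of 7401 regions of captured methylated DNA, 6 overlapped 5 member loci, all of complex I, which holds 35 of the 86 loci. The signal was lower in obese animals in 2 of these 6, and in 5236 of all 7401. Within 5000 bases, regions also lay near COX4I1 and COX8C of complex IV. The share of all gene loci that hold a region is not given, here or for the bisulfite regions below. In the obese and the lean group, the authors' mean signal was 30.8 and 21.8 in the first region at NDUFA10 and 38.5 and 29.1 in the other one. It was 34.8 and 26.1 at NDUFS6 (chromosome 16, 85613501 to 85614700), 36.7 and 27.2 at NDUFV3, 7.02 and 12.8 at NDUFA12, and 5.76 and 10.5 at NDUFB9. NDUFA10, NDUFS6 and NDUFV3 had more signal in obese animals and RNA differences of 0.24, 0.22 and 0.12. NDUFA12 and NDUFB9 had less signal and RNA differences of -0.13 and -0.28. The RNA of all 5 genes overlapped between the groups, with a limma unadjusted p from 0.089 for NDUFB9 to 0.475 for NDUFA12. Other regions within 5000 bases overlapped no member locus. There the signs of signal and RNA differed at COX4I1 (more signal, RNA -0.03) and NDUFAB1 (less signal, RNA 0.0078). They matched at NDUFA9 (less signal, RNA -0.28) and at a further region near NDUFA10.

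Of 610 regions from bisulfite sequencing with at least 5 animals a group, 2 overlapped member loci. Methylation was lower in obese animals in 1 of these 2, and in 207 of all 610. The authors' mean methylation was 18.4% in obese and 7.92% in lean animals at NDUFA1 (chromosome X, 113392162 to 113392200), an accessory subunit, whose RNA difference was 0.01. It was 1.57% and 12.03% at NDUFS3, a core subunit, whose RNA difference was -0.08. Of 2416 regions with at least 3 animals a group, 4 overlapped member loci. The level was lower in obese animals in 2 of these 4, and in 941 of all 2416. The obese and lean means were 19.0 and 8.48% at NDUFA1, 51.0 and 26.9% at SDHA, 81.1 and 93.7% at COX4I1, and 0.480 and 12.3% at COX7C. The read depth of single regions was not analysed here, and no relation between methylation and RNA was tested.

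The symbol rule missed some genes of the complexes that the expression values list without a symbol or under other names. They were found through a list of gene names. UQCRC2, the other core subunit of complex III, stood at 34.9 ± 5.96 FPKM in lean and 29.2 ± 8.04 in obese pigs, and NDUFB6 of complex I at 78.7 ± 16.4 and 69.3 ± 14.2 (SD, n = 5). UQCR10, a small subunit of complex III, stood at 583 ± 81.9 and 650.3 ± 132 (SD, n = 5), above every complex III gene among the members. Their differences were -0.28, -0.18 and 0.14, with limma adjusted p of 0.462, 0.602 and 0.680. ATPIF1, the inhibitor that stops complex V from running backwards, stood at 295 ± 26.9 and 296 ± 58.7 (SD, n = 5) with a difference of -0.02.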

How the data were processed

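RNAseq, captured methylated DNA (mDNAcap) and bisulfite sequencing (RRBS) were taken from mature adipocytes of lean and obese pigs. The authors mapped RNA reads with STAR 2.3.1 and deposited FPKM values per library from cufflinks 2.2.0. For mDNAcap, the authors deposited for each region the mean signal of a group, a normalised read count from diffReps 1.55.4, for 11 obese and 11 lean animals. Pig-411, labelled obese, stands in the authors' lean group. For RRBS, the authors deposited the mean methylated fraction of a group per region, given here in percent. Their fold changes and p-values were held but not used, so all regions in their tables were read, where the design had named thresholds on those p-values. A further 2 columns of per-sample values were not used.

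FPKM of the 52 entries that repeat an earlier identifier were added to it, and 9 genes with a failed estimate were not tested. Values were divided by median-of-ratios size factors (0.693 to 1.23), pig-572's libraries were averaged, and 10190 genes with a mean of at least 1 FPKM were compared on log2(FPKM + 1) with limma 3.58.1 (eBayes with trend, two-sided) in R 4.3.3, with Benjamini-Hochberg adjustment over all of them and a threshold of 0.05. The script was tested on simulated data. For single genes the exact permutation p is two-sided and comes from all 252 splits. Tables and figures used Python 3.11.15, numpy 2.4.6, pandas 2.3.3 and matplotlib 3.10.9. FPKM values alone do not give the depth of a library, and relative depth was estimated from the steps of values under 0.15 FPKM.

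Members and lists were chosen with earlier results of these data known. Named genes were the 3 most abundant of each complex, up to 2 with the lowest unadjusted p per direction and complex, every called member, the tissue or gene-copy isoforms, and SDHA to SDHD. From other lists up to 2 per direction were named. Further names followed their values or regions. The 9 ribosomal S6 kinase symbols were left out of the ribosomal list after seeing the data. A member of complex I counts in the totals and medians and is not reported here by itself. Promoter motifs were not analysed here. Alternatives were other scalings, pseudocounts, filters, treatments of pig-572, eBayes without trend, each pig left out, and other distances to a locus.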

Additional observations from a re-analysis of the deposited data

Results flagged for a closer look

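Values of single pigs were compared with those of their group, as the gap of the outermost pig to its neighbour over the range of the group. In 6 of 202 groups of 5 pigs this share was above 0.71, while chance flags about 1 in 20 groups. For UQCRH, lean pig-402 was low (0.73). For TFB2M, a factor of mitochondrial transcription, obese pig-433 was low (0.812). Lean pig-413 was low in the remaining groups. These were COL1A2 at its loci ENSSSCG00000022000 (0.872) and ENSSSCG00000015326 (0.923), the median of the macrophage and leukocyte markers (0.762) and that of the fibroblast and preadipocyte markers (0.812). The cause was not tested.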

How the results depend on the processing

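Called members numbered 0 under every alternative. The median difference of the members stayed below 0, from -0.15 to -0.04 with single pigs left out. Genes called over all genes, 1 in the main setting, numbered 0 without size factors, 8 with a pseudocount of 5, 5 without the filter on low values, 6 with a mean of at least 5 FPKM, 10 with the second library of pig-572 only, 178 when each library of pig-572 counted as a replicate, and 1 to 165 with single pigs left out. Treating these libraries as separate counts pig-572 double. Members lower in obese pigs at an unadjusted p under 0.05, 3 in the main setting, numbered 6 without the filter (7.98% of all genes). They numbered 6 with separate libraries (13.6% of all genes) and 7 with eBayes without trend (10.4% of all genes). With single pigs left out they numbered 3 to 7 (6.80 to 13.6% of all genes). Members higher, 1 in the main setting, numbered 0 without size factors (5.98% of all genes). With single pigs left out they numbered 1 to 2 (7.47 to 12.9% of all genes). Members without overlap, 2 in the main setting, numbered 0 without size factors (2.303% of all genes), 3 with upper quartile size factors (3.88%) and 2 to 5 with single pigs left out (4.48% to 10.4%). The cause was not tested.

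Within 5000 bases in place of an overlap, mDNAcap regions at member loci numbered 11 and RRBS regions 4, while RRBS regions with at least 3 animals a group numbered 4 by overlap and 6 within that distance. A stricter threshold on the authors' region tables was not run, because their p-values were not used.

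Of 39 named members, 24 kept the sign of their difference under every alternative in which they were tested. With the second library of pig-572 only, SDHA stood at 0.011. With separate libraries, SDHA stood at 0.0098, NDUFB1 at 0.039, COX4I1 at 0.010, COX7A2L at 0.0027 and ATP5A1 at 0.012. With single pigs left out, differences that changed sign ran from -0.14 to 0.15 for NDUFB1, -0.088 to 0.042 for NDUFAF3, -0.10 to 0.072 for SDHA, -0.16 to 0.0061 for SDHC, -0.093 to 0.040 for SDHD, -0.013 to 0.16 for UQCR11, -0.20 to 0.062 for UQCRH, -0.11 to 0.082 for COX4I1, -0.046 to 0.13 for COX6A1, -0.013 to 0.16 for COX6B, -0.072 to 0.058 for COX7A2L, -0.023 to 0.056 for COX7B, -0.13 to 0.091 for ATP5A1, -0.065 to 0.12 for ATP5D and -0.19 to 0.11 for ATP5G1, and in other lists -0.18 to 0.37 for PECAM1, -0.016 to 0.15 for RPL7L1 and -0.19 to 0.0049 for PPARG. Adjusted p of ACAA2, LEP and RPL10L was under 0.05 with separate libraries, as was that of HADHA, LEP and RPL10L without pig-402.

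No paired analysis was possible because lean and obese pigs are different animals and replicate numbers only name them. With 5 pigs a group, small differences cannot be told from the spread between pigs, and RRBS depth per region was not analysed here.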
